A study of Sus scrofa with 8 samples.

Results

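The genes described here encode cytosolic sensors of RNA, their adaptor and enzymes that respond to double-stranded RNA (dsRNA). They are DDX58, IFIH1, DHX58, TRIM25, MAVS, ZNFX1, ADAR, EIF2AK2 and OAS2. They were chosen by symbol, and each symbol matched 1 row of the count table, which gives 9 of 24358 rows. RIG-I-like receptors are helicases that recognise viral RNA in the cytosol and pass the signal through an adaptor on the mitochondrial membrane, which leads to transcription of type I interferons. Many sensors and effectors of the pathway are themselves interferon-stimulated genes, and members of the IRF family bind the promoters of such genes. Pluripotent stem cells are known for a weak interferon response to dsRNA compared with differentiated cells.

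RNA-seq was carried out on porcine induced pluripotent stem cells (piPSCs) to examine how forced expression of the transcription factor IRF-1 changes gene expression. The methods describe the cells as DOX-hLIF-2i piPSCs, which were derived from porcine embryonic fibroblasts, depend on doxycycline-induced reprogramming factors in both groups and are kept on feeder cells. In the overexpressing group (replicates 1 and 3), IRF1 with a Flag tag, amplified from fibroblast cDNA, was driven by the ubiquitous CAG promoter from the PB-CAG-IRF1-Flag vector, and the control group (replicates 6 and 8) received PB-CAG-Flag. Both groups were selected with puromycin. The labels add a domestic pig breed and an adult stage, name an LCDMV culture system that differs from the medium in the methods, and say that feeders were left attached to the plate before RNA was taken. The genotype label reads overexpression for all 4 libraries, so the groups follow the study's assignment of the library titles. Nothing says that the libraries came from separate cultures, and the p-values therefore measure the spread between these libraries, which may be technical.

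The libraries held 24923319 and 20858333 counts in the overexpressing replicates 1 and 3, and 15925429 and 17097669 counts in the control replicates 6 and 8. IRF1 was read first as a check of the groups. It had 8206 and 5485 counts under IRF-1 overexpression against 55 and 56 counts in the controls. Both libraries assigned to overexpression were thus far above both controls, with a log2 fold change of 6.46 (SE 0.21, adjusted p = 3.65e-05 by edgeR). Reads of the introduced and the endogenous gene are not separated in these counts. Levels are given below as FPKM, counts divided by exon length and by library size after TMM scaling. A gene was called when its adjusted p in edgeR's quasi-likelihood test was under 0.05 and its log2 fold change was at least 1 in size.

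Among the 9 genes, IFIH1 and EIF2AK2 were higher in the IRF-1 overexpressing cells and DHX58 was lower, while the other 6 genes were not called. The 2 genes called higher are 22.2% of the 9, beside 8.61% of the 13250 genes tested, and the 1 gene called lower is 11.1%, beside 10.6%. The share called lower was thus close to that of all genes, and the share called higher rests on 2 genes. By the adjusted p alone, 3 genes were higher and 2 were lower, beside 13.9% and 15.5% of all genes. Both overexpressing libraries lay above both controls for 5 genes and below them for 3 genes, beside 34.8% and 33.8% of all genes. The median log2 fold change was 0.33 for the 9 genes and -0.0016 for all genes tested. The genes therefore did not move in 1 direction, and the receptors in particular differed from each other.

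**Figure D1:**
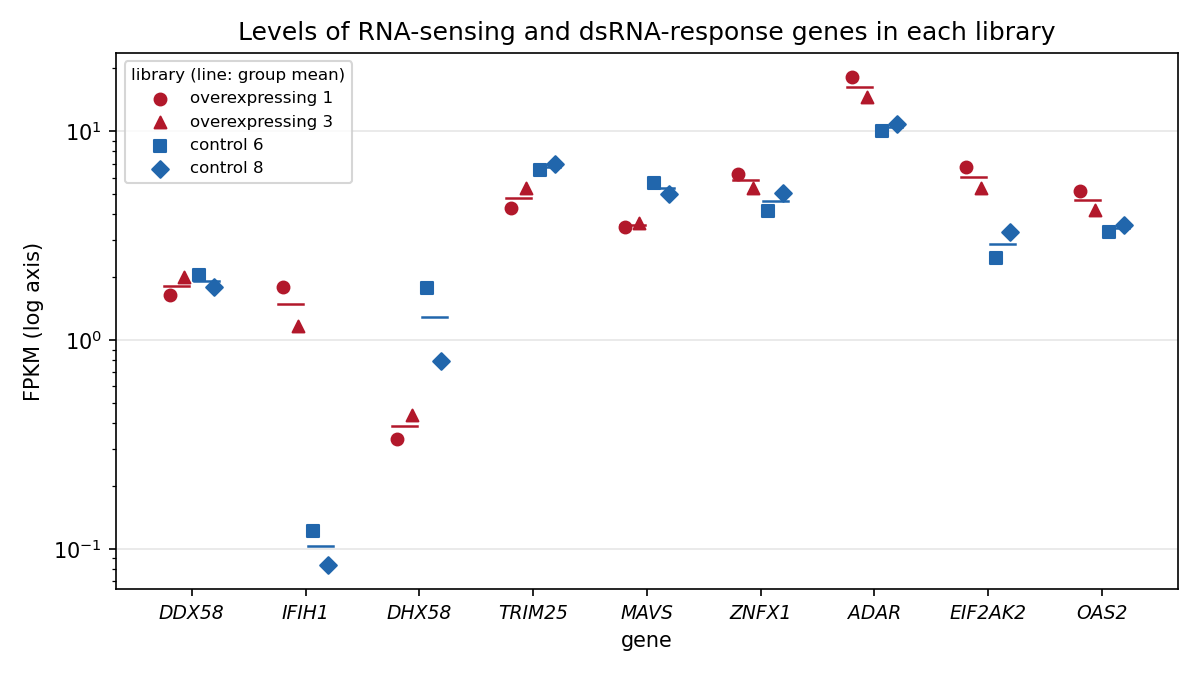
FPKM of the 9 genes (log axis) in the overexpressing libraries (red, replicates 1 and 3) and the control libraries (blue, replicates 6 and 8), with the group means as lines. IFIH1 lies at 1.79 and 1.17 FPKM in the overexpressing libraries against 0.122 and 0.0839 FPKM in the controls, DHX58 lies lower in the overexpressing libraries, and the points of DDX58 overlap.

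IFIH1 encodes MDA5, the RIG-I-like receptor that binds long dsRNA. It had 303 and 166 counts under IRF-1 overexpression and 13 and 10 counts in the controls, which corresponds to 1.79 and 1.17 FPKM against 0.122 and 0.0839 FPKM. Both overexpressing libraries were high and both controls were low, with a wide gap between the groups. The control counts are small, and exact Poisson 95% intervals, which cover counting error only, run from 0.065 to 0.209 FPKM in control replicate 6 and from 0.0402 to 0.154 FPKM in control replicate 8. Both lie below the interval of the lower overexpressing library, from 1.00 to 1.36 FPKM, so that the gap between the groups exceeds the counting error. The group means were 1.48 ± 0.438 and 0.103 ± 0.027 FPKM (SD, n = 2 each). IFIH1 rose 14.4-fold, a log2 fold change of 3.84 (SE 0.416, 95% interval 2.88 to 4.81, adjusted p = 0.000855 by edgeR). This was the only one of the 9 genes called under each of the 14 alternatives tried, with log2 fold changes between 3.52 and 4.13.

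DHX58 encodes LGP2, a RIG-I-like receptor without the signalling domains of the others, which modulates their activity. It had 40 and 44 counts under IRF-1 overexpression and 134 and 67 counts in the controls, or 0.335 and 0.440 FPKM against 1.78 and 0.796 FPKM. Both overexpressing libraries were below both controls, but the controls differed from each other 2.24-fold. Exact Poisson 95% intervals ran from 1.49 to 2.11 FPKM in control replicate 6 and from 0.617 to 1.01 FPKM in control replicate 8, so the controls were apart by more than counting error. The upper end in overexpressing replicate 3 was 0.590 FPKM, just under the lower end in control replicate 8. DHX58 was 3.32-fold lower in the overexpressing cells, with a log2 fold change of -1.73 (SE 0.462, 95% interval -2.81 to -0.66, adjusted p = 0.0264 by edgeR). The call was lost without control replicate 6 (log2 fold change -1.04, edgeR adjusted p = 0.125), without overexpressing replicate 1 (-1.53, 0.134) and without overexpressing replicate 3 (-1.93, 0.0533), and it was kept without control replicate 8 (-2.20, 0.00207). Over the 14 alternatives the adjusted p ranged from 0.000472 to 0.197, where the highest comes from testing against a log2 fold change of 1. The direction was the same in each.

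DDX58 encodes RIG-I, the receptor for short dsRNA with a triphosphate at its 5′ end. It had 242 and 249 counts under IRF-1 overexpression and 190 and 187 counts in the controls, or 1.64 and 2.01 FPKM against 2.04 and 1.80 FPKM. The groups overlapped. The log2 fold change was -0.07 with a 95% interval from -0.63 to 0.49 (adjusted p = 0.847 by edgeR), an interval that leaves room for a modest difference in either direction. DDX58 thus had a level in the controls that was many times that of IFIH1 on the FPKM scale, and in the overexpressing cells the FPKM ranges of both genes overlapped.

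The balance of the receptor genes was read from each library on the FPKM scale. IFIH1 took 47.6% and 32.4% of the summed FPKM of DDX58, IFIH1 and DHX58 in overexpressing replicates 1 and 3, and 3.09% and 3.14% in control replicates 6 and 8. DHX58 took 8.90% and 12.2% in the overexpressing libraries, compared with 45.2% and 29.8% in the controls. The order of IFIH1 and DHX58 was therefore opposite in the groups, in both libraries of each. The ratio of IFIH1 to DHX58 FPKM was 5.35 and 2.66 in the overexpressing libraries against 0.0685 and 0.105 in the controls. DDX58 held 43.5% and 55.5% against 51.7% and 67.1%, which overlap. The summed FPKM of the receptor genes was 3.76 and 3.62 in the overexpressing libraries, compared with 3.95 and 2.68 in the controls, so the groups overlapped in the total while they differed in its makeup. An exact two-sided permutation test on 2 and 2 libraries cannot reach a p below 0.333, so these shares are given as levels.

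**Figure D2:**
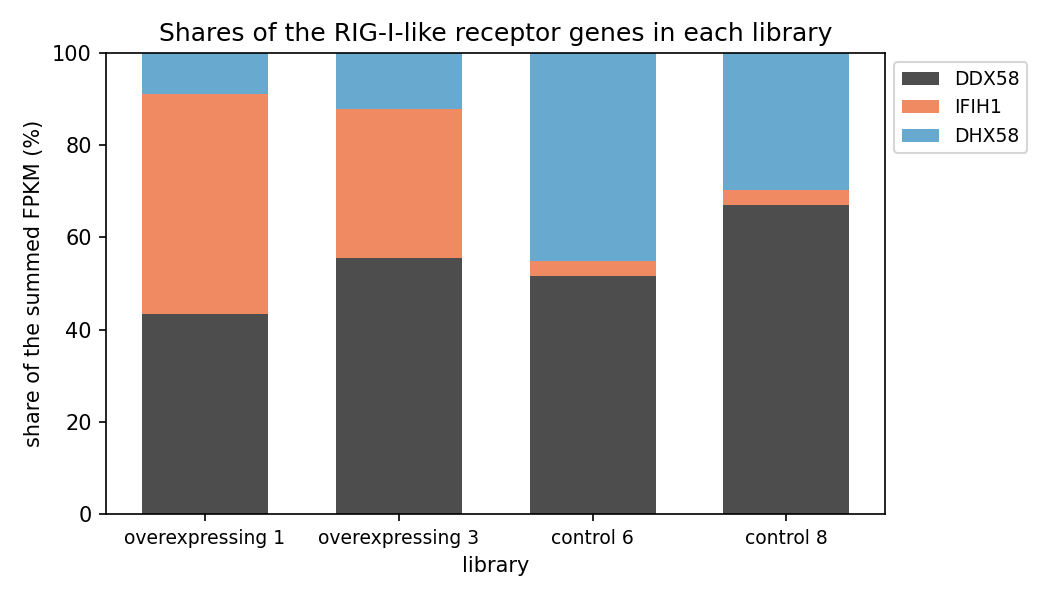
Share of DDX58, IFIH1 and DHX58 in the summed FPKM of the receptor genes (vertical axis, percent) in each of the 4 libraries. IFIH1 takes 47.6% and 32.4% in the overexpressing libraries, compared with 3.09% and 3.14% in the controls, and DHX58 shows the opposite order.

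TRIM25 encodes a ubiquitin ligase that acts on RIG-I. It had 202 and 211 counts under IRF-1 overexpression and 193 and 231 counts in the controls, or 4.28 and 5.34 FPKM against 6.50 and 6.95 FPKM. Both overexpressing libraries were below both controls. The log2 fold change of -0.49 had a 95% interval from -1.05 to 0.07 and was not called (adjusted p = 0.173 by edgeR). MAVS encodes the adaptor on the mitochondrial outer membrane that RIG-I and MDA5 signal through. Its counts were 437 and 379 under IRF-1 overexpression and 446 and 440 in the controls, or 3.50 and 3.62 FPKM against 5.68 and 5.0 FPKM. The overexpressing libraries were again below both controls, and replicates of a group lay close together. The log2 fold change of -0.58 (SE 0.181, 95% interval -1.01 to -0.16) passed the adjusted p limit (0.0454 by edgeR) but not the fold minimum. With DESeq2 the adjusted p of MAVS was 0.0639, and over the 14 alternatives it ranged from 0.0392 to 1, where the highest comes from testing against a log2 fold change of 1. The limit was also missed without overexpressing replicate 1 (-0.55, edgeR adjusted p = 0.243), without overexpressing replicate 3 (-0.60, 0.166) and without control replicate 6 (-0.49, 0.131).

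ZNFX1 encodes a helicase with a zinc finger domain that binds dsRNA at the mitochondria. It had 1144 and 820 counts under IRF-1 overexpression and 478 and 650 counts in the controls, or 6.28 and 5.37 FPKM against 4.17 and 5.07 FPKM. The overexpressing libraries were above both controls by a small margin, since overexpressing replicate 3 and control replicate 8 were close. The log2 fold change of 0.33 had a 95% interval from -0.07 to 0.74 and was not called (adjusted p = 0.193 by edgeR).

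EIF2AK2 encodes PKR, a kinase that dsRNA activates and that phosphorylates the initiation factor eIF2 to stop translation. It had 1435 and 943 counts under IRF-1 overexpression and 330 and 490 counts in the controls, or 6.78 and 5.32 FPKM against 2.48 and 3.29 FPKM. Both overexpressing libraries were above both controls, at 6.05 ± 1.03 against 2.88 ± 0.572 FPKM (SD, n = 2 each). EIF2AK2 rose 2.10-fold, with a log2 fold change of 1.07 (SE 0.205, 95% interval 0.59 to 1.54, adjusted p = 0.00727 by edgeR). Its estimate lay just over the fold minimum and dropped under it without overexpressing replicate 1 (0.90) and without control replicate 6 (0.88). Over the 14 alternatives the adjusted p of EIF2AK2 ranged from 1.22e-05 to 0.804, where the highest comes from testing against a log2 fold change of 1. The direction was the same in each of the 14 alternatives.

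ADAR encodes the deaminase that edits adenosine to inosine in dsRNA. It had 1539 and 1036 counts under IRF-1 overexpression and 537 and 650 counts in the controls, or 18.1 and 14.6 FPKM against 10.1 and 10.9 FPKM. Both overexpressing libraries were above both controls. The log2 fold change of 0.64 (SE 0.167, 95% interval 0.26 to 1.03) passed the adjusted p limit (0.0237 by edgeR) and missed the fold minimum. The p limit was missed without overexpressing replicate 1 (log2 fold change 0.49). Over the 14 alternatives the adjusted p ranged from 0.00413 to 1, where the highest comes from testing against a log2 fold change of 1. OAS2 encodes a synthetase that makes 2′-5′ oligoadenylates when it binds dsRNA. Its counts were 600 and 405 under IRF-1 overexpression and 240 and 290 in the controls, or 5.19 and 4.19 FPKM against 3.30 and 3.57 FPKM. The overexpressing libraries were above both controls, yet the log2 fold change of 0.45, with a 95% interval from -0.02 to 0.92, was not called (adjusted p = 0.138 by edgeR). All 3 enzyme genes thus lay higher in both overexpressing libraries, and EIF2AK2 was the only one of them called.

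**Figure D3:**
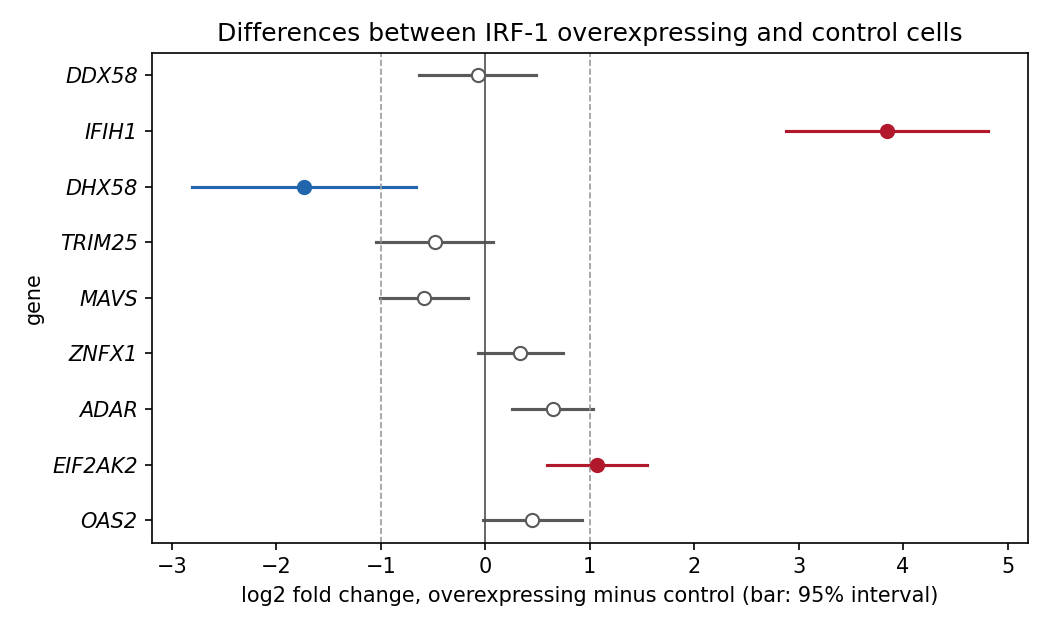
Log2 fold change (overexpressing minus control) of each of the 9 genes with its 95% interval, with filled points for called genes and dashed lines at -1 and 1. IFIH1 at 3.84 and EIF2AK2 at 1.07 were called higher and DHX58 at -1.73 was called lower.

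On the FPKM scale, the order of the mean levels in the control cells was ADAR (10.5), TRIM25 (6.73), MAVS (5.34), ZNFX1 (4.62), OAS2 (3.43), EIF2AK2 (2.88), DDX58 (1.92), DHX58 (1.29) and IFIH1 (0.103). Of these neighbours, MAVS and ZNFX1 were the only pair whose library values overlapped. In the overexpressing cells, the mean FPKM gave the order ADAR (16.3), EIF2AK2 (6.05), ZNFX1 (5.82), TRIM25 (4.81), OAS2 (4.69), MAVS (3.56), DDX58 (1.82), IFIH1 (1.48) and DHX58 (0.387). There the library values overlapped between EIF2AK2 and ZNFX1, between TRIM25 and OAS2 and between DDX58 and IFIH1. ADAR was thus the most abundant per length in both groups, the least abundant was IFIH1 in the controls and DHX58 in the overexpressing cells, and EIF2AK2 moved from below OAS2 to above it. The libraries of a group differed most for DHX58 in the controls (2.24-fold in CPM, the counts scaled to the same TMM library size without the exon length) and for IFIH1 in the overexpressing cells (1.53-fold), and least for MAVS in the overexpressing cells (1.04-fold).

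The positions are those of the count table on Sus scrofa 11.1. Among the receptors, IFIH1 (ENSSSCG00000015897) lies on the minus strand of chromosome 15 from 68928254 to 68985492, DHX58 (ENSSSCG00000017416) on the plus strand of chromosome 12 from 20647691 to 20658777, and DDX58 (ENSSSCG00000030408) on the plus strand of chromosome 10 from 33866114 to 33967141. TRIM25 (ENSSSCG00000017614) lies on the minus strand of chromosome 12 from 33187342 to 33212339, and MAVS (ENSSSCG00000007143) on the minus strand of chromosome 17 from 31850894 to 31869187. ZNFX1 (ENSSSCG00000030108) is on the same chromosome and strand as MAVS, from 50925791 to 50958705. No pair of the genes is adjacent. ADAR (ENSSSCG00000006543) lies on the plus strand of chromosome 4 from 95178756 to 95194668, EIF2AK2 (ENSSSCG00000008496) on the plus strand of chromosome 3 from 103041221 to 103096738, and OAS2 (ENSSSCG00000009881) on the minus strand of chromosome 14 from 38827673 to 38860820.

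Counts cover the annotated exons, and some of these are shared with a neighbour. DHX58 shares 303 of its 4808 exon bases with KAT2A on the same strand, whose log2 fold change was 0.33 (95% interval -0.03 to 0.69). EIF2AK2 shares 557 of 8517 bases with GPATCH11 on the opposite strand, whose log2 fold change was -0.03 (95% interval -0.51 to 0.45). Neither neighbour was called. DDX58 shares 290 of 5954 bases with TOPORS on the same strand and 159 with ACO1 on the opposite strand. ACO1 was lower by its adjusted p alone (log2 fold change -0.67, edgeR adjusted p = 0.00868) and TOPORS was not called (-0.05, 95% interval -0.41 to 0.31). The strand setting of the counting is not given in the sources used here, so reads in these stretches are uncertain. In the RefSeq annotation of the same assembly, 56.5% of the DHX58 exon bases and 54.6% of the IFIH1 exon bases of the count table lie within the RefSeq gene, against 86.4% for DDX58, 97.3% for OAS2 and 100% for the other 5 genes. The DDX58 row also has 634 exon bases within the RefSeq ACO1 gene and 430 within the RefSeq TOPORS gene, and the OAS2 row has 27 within the RefSeq OAS1 gene. The counts of DHX58 and IFIH1, and with them the FPKM values and fold changes, therefore include exon bases outside the RefSeq gene, and a count without these bases was not made.

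For each called gene, the named genes with the most similar pattern over the 4 libraries were found by the root-mean-square distance of centred log2 CPM. Those nearest to IFIH1 were PLA2G4A (distance 0.0736), DPP10 (0.100) and FAAH (0.103). Those nearest to DHX58 were EBF4 (0.050), MGAT3 (0.0502) and OSGIN1 (0.0586), and those nearest to EIF2AK2 were MLXIP (0.0227), PSEN2 (0.0335) and GALK2 (0.0369). With 4 libraries, such distances describe these profiles and no more.

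Other genes of the pathway were taken from lists for 10 steps of RNA sensing with 107 genes, of which 92 had a row by symbol and 75 were tested. Of the tested genes, 8 were higher (10.7%, beside 8.61% of all genes) and 5 were lower (6.67%, beside 10.6%). The median log2 fold change was 0.09. These shares lie near those of all genes, and called genes are given by step.

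Genes that bind the 5′ end of foreign RNA held 2 of the 8 genes called higher among 3 tested. IFIT1 had 474 and 230 counts under IRF-1 overexpression and 21 and 10 counts in the controls (log2 fold change 3.99, SE 0.473, adjusted p = 0.00109 by edgeR). IFIT2 had 81 and 30 counts against 0 in both controls. Set against the floor of 3 counts for each control library, it was at least 12.9-fold higher (adjusted p = 0.00378 by edgeR), and at least 7.93-fold higher without overexpressing replicate 1. IFIT2 was thus at the floor in the controls, and IFIT1 was above it. Of the 6959 exon bases of the IFIT1 row, 35.0% lie within the RefSeq gene IFIT3 and 30.1% within the RefSeq gene IFIT1, so reads of IFIT1 and IFIT3 are not separated. Of the 6184 exon bases of the IFIT2 row, 55.8% lie within the RefSeq gene IFIT2. The IFIT1 and IFIT2 rows also lie wholly (100%) within the span of the RefSeq gene LIPA. The other tested gene, IFIT5, had 1399 and 1008 counts against 622 and 721 and was not called (log2 fold change 0.37, 95% interval 0.02 to 0.73, edgeR adjusted p = 0.110). Of the 3218 exon bases of the IFIT5 row, 46.7% lie within the RefSeq gene LOC100151816. With 3 genes, the median log2 fold change of this list was that of IFIT1, or 3.69 with IFIT2 at its bound. Without control replicate 6 the log2 fold change of IFIT1 was 4.71, and without control replicate 8 it was 3.49.

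TLR3, the endosomal receptor for dsRNA, had 385 and 188 counts under IRF-1 overexpression and 12 and 6 counts in the controls, and rose with a log2 fold change of 4.47 (SE 0.489, adjusted p = 0.000882 by edgeR). It was 5.14 when control replicate 6 was left out and 4.0 when control replicate 8 was. UNC93B1, which carries endosomal receptors to their compartment, went the other way with 80 and 51 counts against 259 and 106 (log2 fold change -1.99, SE 0.484, adjusted p = 0.0188 by edgeR). Its control libraries differed, and the call of UNC93B1 was lost without control replicate 6 (-1.09) and without overexpressing replicate 3 (-1.80). Of the 8 endosomal genes with a row, 5 were tested and 3 were at or under the floor in each library.

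Of 14 tested receptor cofactors and RNA helicases, 1 was called. DDX60, a helicase of the antiviral response, had 33 and 20 counts under IRF-1 overexpression and 0 in both controls, and was at least 6.3-fold higher against the same floor (adjusted p = 0.00494 by edgeR). Of 11 tested negative regulators of RIG-I and MAVS, 1 was higher and 1 was lower. RNF125, a ubiquitin ligase that acts on RIG-I, had 4236 and 2337 counts against 417 and 1022 (log2 fold change 1.73, SE 0.356, adjusted p = 0.00976 by edgeR). It was 1.27 when control replicate 6 was left out and 2.41 when control replicate 8 was. The call of RNF125 was kept with each library left out and lost with glmTreat, which tests against the fold minimum. SMURF1, another ubiquitin ligase, had 169 and 162 counts against 405 and 229 (log2 fold change -1.42, SE 0.337, adjusted p = 0.0172 by edgeR). The call of SMURF1 was lost without control replicate 6 (-0.85) and without overexpressing replicate 1 (-1.31).

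Of 18 tested genes that signal downstream of MAVS, 1 was called. TRAF5, an adaptor of the TRAF family, had 537 and 390 counts under IRF-1 overexpression and 959 and 809 counts in the controls (log2 fold change -1.41, SE 0.194, adjusted p = 0.0019 by edgeR). Of 7 tested genes around eIF2 phosphorylation, PPP1R15A was lower. This gene encodes a phosphatase subunit that reverses the phosphorylation, and it had 423 and 442 counts against 1424 and 568 (log2 fold change -1.69, SE 0.423, adjusted p = 0.0207 by edgeR). The size of the difference rested on control replicate 6, without which it was -0.77 and missed the fold minimum only, and the call was also lost without overexpressing replicate 1 (-1.52), with DESeq2 and with glmTreat. Of 8 tested genes for dsRNA editing, binding and processing, the dsRNA-binding protein gene STAU2 was lower, with 440 and 342 counts against 552 and 603 (log2 fold change -1.03, SE 0.17, adjusted p = 0.00404 by edgeR). Without overexpressing replicate 3 it was -0.97 and under the fold minimum.

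Transcripts of those interferons and cytokines at the end of the pathway that could be read were at or near 0. Of 11 listed, 7 had a row, and 6 of these were at or under 3 counts in each library, so no gene of this list was tested. IFNB1 and CXCL10 had 0 counts in all 4 libraries, which allows up to 3 counts or between 0.121 and 0.192 CPM in a library. IFNG, IFNK, IFNE and CCL5 had at most 2 counts in a library, and IL6 had 3 and 0 counts under IRF-1 overexpression and 4 and 1 counts in the controls. Counts this low limit the size of any difference in these transcripts and give no fold change. Of 6 tested genes for interferon receptors and the factors downstream of them, 2 were higher. IFNAR1, a subunit of the type I interferon receptor, had 418 and 278 counts under IRF-1 overexpression and 120 and 127 counts in the controls (log2 fold change 1.02, SE 0.242, adjusted p = 0.0173 by edgeR). The call of IFNAR1 was lost without overexpressing replicate 1 (0.85) and without control replicate 8 (0.98). The receptor-associated kinase gene JAK1 had 1029 and 648 counts against 156 and 155, with both overexpressing libraries far above the controls.

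Other measures moved with the groups too, and in bulk RNA fewer cells of a type cannot be told apart from less RNA per cell. Markers of the labelled cell type were read first. Of 17 pluripotency markers, 10 had a row, and their summed level was 1258 and 1298 CPM in the overexpressing libraries and 1485 and 1645 CPM in the controls, with DNMT3B as the most abundant. The sum was lower in both overexpressing libraries, but of 7 genes tested 3 were called lower, ESRRB (log2 fold change -4.19), CDH1 (-2.25) and LIN28A (-1.34), and 2 higher, NR5A2 (2.48) and TBX3 (1.59). The shares called were 42.9% lower and 28.6% higher, beside 10.6% and 8.61% of all genes tested. The median log2 fold change of these 7 genes was 0.21, and DNMT3B, which was not called, had 1034 and 1005 CPM against 694 and 996 CPM. PRDM14 and KLF17 were at 0 in all libraries, NANOG had between 5 and 11 counts, and POU5F1 and SOX2 were not analysed here. Of 14 fibroblast markers, 12 had a row, with sums of 202 and 129 CPM against 240 and 132 CPM, which overlap. Single genes did not follow the sum, since of 7 tested 2 were called higher, COL1A2 (log2 fold change 1.08) and PRRX1 (1.62), and 4 lower, PDGFRB (-5.49), DCN (3 and 1 counts against 19 in both controls), S100A4 (-2.40) and COL1A1 (-1.97). These are 28.6% and 57.1% of the tested fibroblast markers, beside 8.61% and 10.6% of all genes tested. The most abundant was COL1A2 in the overexpressing cells and PDGFRB in the controls, while COL3A1, COL6A3 and LUM had at most 9 counts in a library. The 16 markers of blood and immune cells summed to 46.1 and 38.3 CPM against 185 and 130 CPM, most of it AIF1. PTPRC had at most 1 count in a library and LYZ, CD3E and MS4A1 were at 0, whereas CD68 was above the floor in each library. CD68 had 148 and 135 counts against 126 and 100, or 5.95 and 6.49 CPM against 8.06 and 5.71 CPM, which overlap. Of this list, CSF1R (20 to 28 counts), SPI1 (27 to 37) and CD79A (19 to 59) were also above the floor in each library. Of 6 tested genes AIF1 was called lower (16.7%, beside 10.6% of all genes tested).

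Of 6 endothelial markers, 4 had a row, with sums of 3.3 and 6.63 CPM in the overexpressing libraries and 56.9 and 64.3 CPM in the controls, most of it TEK, while CDH5 had at most 1 count in a library. The 10 trophoblast markers summed to 319 and 1172 CPM against 15680 and 9617 CPM, led by KRT8, with CDX2 at 0 in all libraries, while TFAP2A of the same list had 769 and 890 counts against 45 and 47. The sums of the endothelial, trophoblast, blood and immune, and pluripotency markers were thus lower in both overexpressing libraries. Of the 9 RNA-sensing genes, 3 (DHX58, TRIM25 and MAVS) lay below both controls and 5 above. Of the 7 tested pluripotency markers, 4 lay above both controls and 3 below, beside 34.8% and 33.8% of all genes. DNMT3B, 1 of those above, was close in overexpressing replicate 3 (1005 CPM) and control replicate 8 (996 CPM) and was not called. The share of mitochondrial counts was 8.62% and 7.57% in the overexpressing libraries, compared with 6.29% and 6.68% in the controls, and the overexpressing libraries were also the deeper ones. The part of these markers, of the mitochondrial share and of depth in the differences of the RNA-sensing genes was not tested.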

How the data were processed

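For the 4 RNA-seq libraries, the deposited table holds raw counts per Ensembl gene, not normalized by the authors, and exon lengths. Per the study's methods, reads were mapped to Sus scrofa 11.1 by HISAT2, and the submitters' processing notes name HISAT2 2.0.4 and featureCounts 1.6.4. The annotation release, strand setting and treatment of multi-mapped reads are not given in the sources used here. Symbols were taken from a table of Ensembl gene names (14692 of 24358 rows matched), with DDX58 under its present symbol RIGI.

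From the deposited counts, edgeR 4.0.16 (R 4.3.3) was run with TMM factors (0.982 to 1.02), filterByExpr and the quasi-likelihood test, and p-values were Benjamini-Hochberg adjusted over 13250 genes. The SE is the log2 fold change divided by the square root of F, and 95% intervals use the fit's degrees of freedom. FPKM and CPM use TMM-scaled library sizes. Floors of 3 counts (0.121 to 0.192 CPM) and Poisson intervals cover counting error only. Replicates were compared by chi-square over genes (19.0 per degree of freedom for overexpressing and 33.3 for control libraries), which exceeds sampling noise.

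The genes and lists were chosen with earlier results of these data known. Named genes are the 9 genes, IRF1, called pathway genes (not all reported here), the interferon and cytokine genes, the 3 genes most like each called gene, genes sharing exons and the markers. IFIT5 was named after its values were seen. The 14 alternatives were other normalizations, filters, tests (DESeq2 1.42.0, limma-voom with limma 3.58.1, glmTreat), no fold minimum, each library left out, and removal of 37 mitochondrial and the 10 most counted genes. A library left alone in its group was assumed to vary like the other group. The procedure was tested on simulated data. Figures were drawn with matplotlib 3.10.9, and tables were made in pandas 2.3.3 under Python 3.11.15. ChIP-Seq libraries were not analysed here, and promoter motifs were not searched.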

Additional observations from a re-analysis of the deposited data

How the results depend on the processing

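Other normalizations and filters, limma-voom, DESeq2 and removal of mitochondrial and highly counted genes left the same counts of the 9 genes called, 2 higher and 1 lower, and with 4 libraries their log2 fold changes stayed within -1.73 to -1.62 for DHX58, 3.81 to 3.86 for IFIH1 and 1.06 to 1.09 for EIF2AK2. Without a fold minimum, 1842 genes were higher and 2054 lower in all, 3 of the 9 genes were higher and 2 lower, and 12 pathway genes were higher and 11 lower. With glmTreat, which tests against the fold minimum, 611 genes were higher and 603 lower in all, 1 of the 9 genes (IFIH1) was higher, 6 pathway genes were higher, with RNF125 and IFNAR1 no longer called, and 0 of the 9 genes and 0 pathway genes were lower, against 1 and 4 at an unadjusted p under 0.05, and 1 and 4 called by DESeq2. Here the alternatives' own thresholds set the counts. When libraries were left out singly, between 756 and 1162 genes were higher and between 874 and 1548 lower in all, between 1 and 2 of the 9 genes were higher and between 0 and 1 lower (1 at an unadjusted p under 0.05 each time), and between 2 and 6 pathway genes were lower. DDX58 reversed, within its interval, to 0.081 without overexpressing replicate 1 and to 0.019 without control replicate 6, and ranged from -0.22 to 0.081, and the cause was not tested. No paired analysis was possible because the groups share no replicate number. Low counts of IFIH1 in the controls (13 and 10) and of DHX58 in the overexpressing cells (40 and 44) limit the precision of their fold changes.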
